A study of Saccharomyces cerevisiae with 2 samples.

Results

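Small nucleolar RNA (snoRNA) genes of budding yeast were examined by NOMe-Seq, which marks open chromatin by adding a DNA methyltransferase to nuclei and reading the methylated cytosines by bisulfite sequencing. All nuclear genes that the R64 (sacCer3) annotation types as snoRNA were taken except SNR52, which left 75 of 6413 annotated nuclear genes. The rule for membership uses the annotation alone and no methylation value, but it was chosen with earlier results of these data known. Of the 75 genes, 50 were independent, 17 stood in 5 clusters whose next snoRNA gene followed within 500 bp on the same strand, and 8 lay inside an intron of a protein-coding gene.

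The CCMT library came from S288C nuclei treated with CCMT, a form of M.CviQIX lacking part of its N-terminus whose target is the leading C of CC, and the GCMT library from nuclei of that strain treated with M.CviPI, here called GCMT, whose target is the C of GC. Both groups had been grown in YPD at 30°C, turned into spheroplasts with Zymolyase 100T, fixed with 1% formaldehyde according to the labels, permeabilized with NP-40, and incubated with the enzyme at 37°C for 1 hr. S288C is the laboratory strain from which the yeast reference genome was made. There was 1 library for each enzyme, so no replicate error and no test of a difference between the enzymes or between groups of genes can be given. Each level is the share of methylated reads among all reads over the target cytosines of a region, and its exact Clopper-Pearson 95% interval covers counting error only. No library from untreated yeast was analysed here, so the level without enzyme was not measured.

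snoRNAs guide the chemical modification of ribosomal RNA in the nucleolus. Box C/D snoRNAs direct 2′-O-methylation through the methyltransferase Nop1, box H/ACA snoRNAs direct pseudouridylation through Cbf5, and a few, among them U3, are needed for cleavage of the ribosomal RNA precursor. Most yeast snoRNA genes are transcribed by RNA polymerase II from promoters of their own, clusters are transcribed as 1 precursor that is cut apart, and intronic snoRNAs are released from the intron of their host. Precursors of many snoRNAs extend upstream of the mature RNA and are trimmed by the RNase III Rnt1 and by exonucleases, so the annotated 5′ end marks the RNA and not always the start of transcription. Transcription start sites were not used here. The Myb-like factor Tbf1 is known to bind upstream of many yeast snoRNA genes.

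In the windows from 500 bp upstream to 300 bp downstream of these genes, 4350 of 4356 CC cytosines (99.9%) were listed in the CCMT library and 4433 of 4533 GC cytosines (97.8%) in the GCMT library, with a median of 28 and 13 reads per cytosine. The level over all nuclear cytosines was 9.53% in the CCMT library and 10.4% in the GCMT library. A region was called accessible when its level was at least 2 times that of its library, which set the threshold at 19.1% for CCMT and 20.8% for GCMT. All target cytosines lay in sequence found once in the genome, by the 50 surrounding bases, for 67 of the 75 genes in either library. Only SNR33, SNR53 and SNR59 had fewer than 90% such cytosines in the CCMT library, and no gene did in the GCMT library. The 500 bases upstream of 19 genes overlapped those of another snoRNA gene, so these windows are not independent.

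The upstream DNA of 4 genes is shown because it spans the patterns described in the following paragraphs. The genes are SNR17B, 1 of the genes for U3, SNR11, an independent H/ACA gene that guides pseudouridylation of the large ribosomal RNA, SNR78, the first gene of the longest cluster, and SNR191, which lies inside NOG2. Each sequence runs 5′ to 3′ along the strand of the gene over the 300 bases before the annotated 5′ end, as read from the R64 genome. The intervals are chrXVI:281518-281817 on the minus strand, chrXIII:651975-652274 on the plus strand, chrXIII:296978-297277 on the plus strand and chrXIV:722212-722511 on the minus strand. Capitals mark target cytosines of either enzyme, written as G where the cytosine is on the other strand, whose own level was at least 2 times the nuclear level of their library.
SNR17B: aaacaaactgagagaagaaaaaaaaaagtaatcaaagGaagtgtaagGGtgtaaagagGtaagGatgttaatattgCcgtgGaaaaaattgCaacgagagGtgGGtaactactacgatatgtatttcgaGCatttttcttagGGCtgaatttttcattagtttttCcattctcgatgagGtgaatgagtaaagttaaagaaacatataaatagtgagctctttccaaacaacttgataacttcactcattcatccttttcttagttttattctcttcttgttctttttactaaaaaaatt
SNR11: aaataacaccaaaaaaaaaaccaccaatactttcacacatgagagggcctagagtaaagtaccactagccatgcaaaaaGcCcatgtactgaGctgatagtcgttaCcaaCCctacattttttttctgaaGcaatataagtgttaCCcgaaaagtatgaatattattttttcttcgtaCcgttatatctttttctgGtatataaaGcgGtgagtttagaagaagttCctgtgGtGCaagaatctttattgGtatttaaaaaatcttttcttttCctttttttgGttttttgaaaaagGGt
SNR78: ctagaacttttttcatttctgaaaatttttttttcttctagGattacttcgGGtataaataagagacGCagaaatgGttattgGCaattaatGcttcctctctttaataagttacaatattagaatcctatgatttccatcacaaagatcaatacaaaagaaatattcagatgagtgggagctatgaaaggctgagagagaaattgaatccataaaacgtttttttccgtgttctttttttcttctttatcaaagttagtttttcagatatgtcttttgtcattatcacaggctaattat
SNR191: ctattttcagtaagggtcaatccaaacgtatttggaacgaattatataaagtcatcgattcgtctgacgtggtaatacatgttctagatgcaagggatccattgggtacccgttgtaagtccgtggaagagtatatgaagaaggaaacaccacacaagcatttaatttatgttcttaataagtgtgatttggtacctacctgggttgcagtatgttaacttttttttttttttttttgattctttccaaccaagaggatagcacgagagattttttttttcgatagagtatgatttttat

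In SNR17B, 14 of 16 CCMT cytosines and 6 of 10 GCMT cytosines reached that level, and 12 and 6 of them stood more than 150 bp from the 5′ end. In SNR11, 16 of 25 CCMT cytosines and 6 of 16 GCMT cytosines did, with 10 and 3 of them within 150 bp of the 5′ end. In SNR78, 5 of 14 CCMT cytosines and 5 of 12 GCMT cytosines did, none of them within 150 bp of the 5′ end. In SNR191, none of 24 CCMT cytosines and none of 9 GCMT cytosines did.

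The upstream region was set from 250 bp before the annotated 5′ end to the base before it. Independent genes were the most accessible class there, and intronic genes the least. The median upstream level of the 50 independent genes was 19.3% in the CCMT library, with a range from 3.58% to 43.9%, and 17.9% in the GCMT library, with a range from 5.38% to 38.3%. The 17 cluster genes had medians of 9.36% with CCMT and 9.21% with GCMT, and the 8 intronic genes 6.60% and 8.33%, against 15.6% and 16.7% for protein-coding genes over the same distance from their start codon. Over all 75 snoRNA genes the medians were 13.5% in both libraries.

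With CCMT the upstream region of 27 of 75 snoRNA genes was called, against 30.6% of protein-coding genes, and with GCMT that of 21 of 75, against 31.5% of protein-coding genes. In both libraries at once 16 of 75 were called, against 18.4% of protein-coding genes. At this threshold the snoRNA genes as a whole were thus near the background. At 1.5 times the nuclear level they were below it. There 36 of 75 were called with CCMT, against 58.5% of protein-coding genes, and 31 of 75 with GCMT, against 55.6%. The counts differed between the classes. Among independent genes 26 of 50 were called with CCMT and 20 of 50 with GCMT, among cluster genes 1 of 17 in each library, and among intronic genes 0 of 8 in each. Of the called genes, 20 with CCMT and 12 with GCMT had their whole counting interval above the threshold, and of the genes not called, 42 in each library had it below, so the remaining calls rest on levels close to the threshold.

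**Figure D1:**
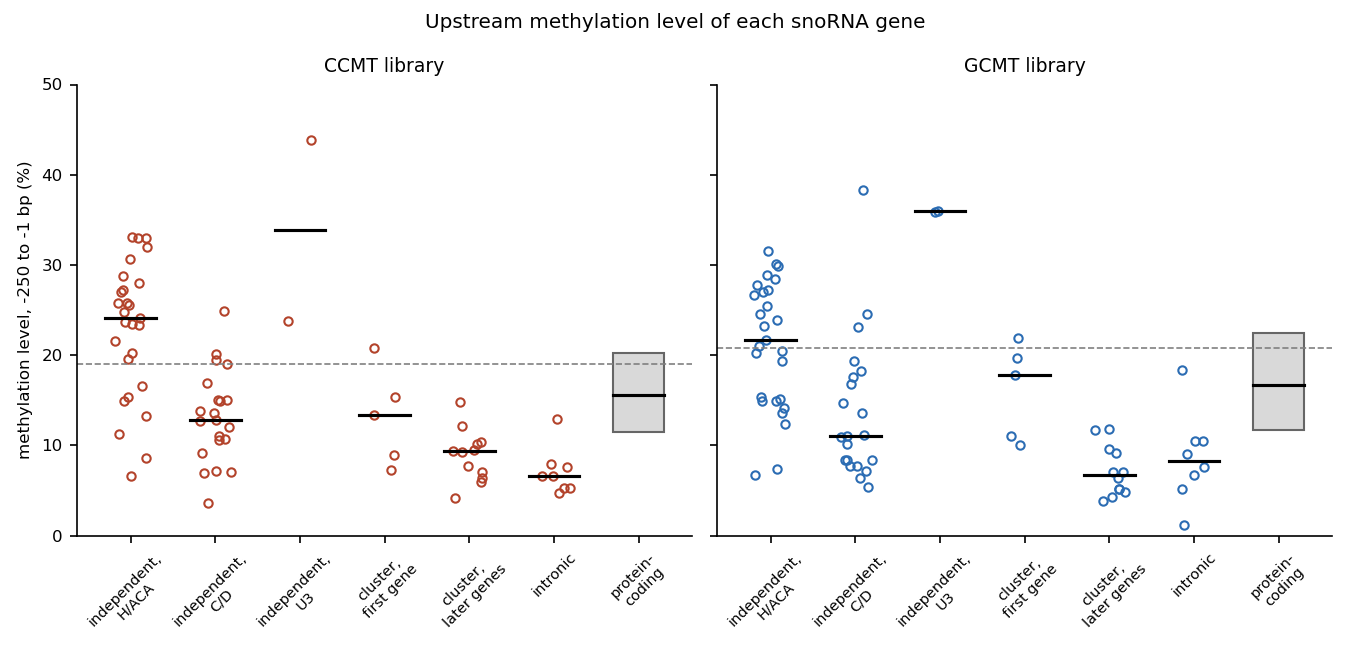
Methylation level from 250 bp upstream to the 5′ end of each snoRNA gene (points, %), by group, in the CCMT library (left) and the GCMT library (right). Thick lines are medians, the grey box spans the middle 50% of protein-coding genes, and the dashed line is 2 times the nuclear level; most independent H/ACA genes lie above it in the CCMT library, whereas no later cluster gene and no intronic gene reaches it in either library.

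The independent genes differed by the box class of their RNA, which the rule for membership and class did not use. This split was chosen after the profiles had been seen. For the 27 independent H/ACA genes the upstream median was 24.1% in the CCMT library and 21.7% in the GCMT library. For the 21 independent C/D genes it was 12.8% and 11.1%. The ranges overlapped, from 6.58% to 33.1% for H/ACA and from 3.58% to 24.9% for C/D genes with CCMT. Of the H/ACA genes 20 of 27 were called with CCMT, 15 with GCMT and 11 with both, and of the C/D genes 4 of 21, 3 and 2. The shares of protein-coding genes were 30.6%, 31.5% and 18.4%, below those of the H/ACA genes and above those of the C/D genes. The 2 genes for U3, the snoRNA of the small-subunit processome, were set apart from both classes by name and were called in both libraries. Counted with the C/D genes, they would add 2 called genes to that class in each library and in both at once.

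SNR17B, on chromosome XVI, had the highest upstream level of all snoRNA genes in the CCMT library, at 43.9% (interval 38.2% to 49.7%, 13 cytosines), and 35.9% (28.9% to 43.4%, 10 cytosines) in the GCMT library. The other U3 gene, SNR17A on chromosome XV, had 23.8% (20.3% to 27.7%) with CCMT and 36.0% (30.2% to 42.1%) with GCMT. The U3 genes stayed high farther upstream. From 500 to 251 bp upstream SNR17A had 28.2% with CCMT and 35.6% with GCMT, and SNR17B 32.8% and 34.0%, against medians of 9.27% and 10.7% for independent H/ACA genes and 14.1% and 13.7% for independent C/D genes. These genes are close copies, and between 95.3% and 98.4% of their cytosines lay in unique sequence.

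Ranked in each library and judged by the worse rank, the 8 highest independent genes were SNR17B, SNR10, which is described with the cleavage genes, SNR45 and 5 more H/ACA genes. SNR11 had 33.1% (28.7% to 37.7%) with CCMT and 27.2% (21.4% to 33.7%) with GCMT. SNR32, SNR161, SNR34 and SNR3, all guides of pseudouridylation, lay between 25.5% and 27.2% with CCMT and between 26.6% and 29.9% with GCMT. SNR45, a C/D RNA that guides acetylation of a cytosine of 18S rRNA, had 24.9% (20.6% to 29.7%) with CCMT and the highest GCMT level of all snoRNA genes, 38.3% (30.2% to 46.9%), over 8 cytosines.

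Among the snoRNAs with a known part in cleavage of the ribosomal RNA precursor, the independent H/ACA genes SNR10 and SNR30 were both called with CCMT. SNR10 had 28.8% (23.1% to 34.9%) with CCMT and 28.9% (23.3% to 35.1%) with GCMT. SNR30 had 24.1% (19.9% to 28.8%) with CCMT but 15.4% (10.8% to 21.02%) with GCMT, and so was called with CCMT only. SNR128, which encodes U14 and is the later gene of a cluster, was low, with 5.91% (3.78% to 8.74%) with CCMT and 7.10% (3.60% to 12.3%) with GCMT. SNR190, which the gene list placed with them, is the first gene of the cluster that holds SNR128, and had 15.3% with CCMT and 17.9% with GCMT.

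The 4 lowest independent genes, judged by the better rank, were 3 C/D genes and 1 H/ACA gene. SNR66 and SNR63 guide methylation of the large ribosomal RNA, and had 7.03% and 7.19% with CCMT and 6.42% and 5.38% with GCMT. SNR80, an H/ACA gene, had 6.58% (3.20% to 11.8%, 152 reads) with CCMT and 6.73% (2.75% to 13.4%, 104 reads) with GCMT. SNR87, a guide for the small ribosomal RNA, had 9.14% and 8.42%. These levels are below the nuclear level, but several of their intervals reach above it. Those of SNR80 did in both libraries, as did those of SNR87, from 5.32% to 14.4% with CCMT and from 4.98% to 13.1% with GCMT. That of SNR63 did with CCMT, from 4.66% to 10.5%. For SNR63 and SNR87 the DNA farther upstream was not below the nuclear level. From 500 to 251 bp upstream, SNR63 had 23.8% with CCMT and 20.3% with GCMT, and SNR87 29.5% and 33.7%.

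The distance of the accessible stretch from the 5′ end differed between the groups. In running means over 21 bp of the profile pooled over genes, the independent H/ACA genes had their upstream maximum at −124 bp with CCMT (34.6%) and −129 bp with GCMT (38.1%). The independent C/D genes had a lower pooled maximum farther upstream, at −239 bp with CCMT (22.8%) and −282 bp with GCMT (28.7%). The highest 50-bp bin of single C/D genes began between −500 and −50 bp with CCMT and between −500 and −100 bp with GCMT. That of single H/ACA genes began between −450 and −50 bp and between −450 and −100 bp. The pooled maxima therefore do not give the height reached in single genes. In 50-bp bins, the H/ACA genes reached 30.7% in both libraries in the bin that begins 150 bp upstream, where the C/D genes had 10.1% with CCMT and 10.4% with GCMT. In the bin that begins 300 bp upstream the order was turned round, with 9.19% and 12.1% for H/ACA genes and 18.0% and 23.01% for C/D genes.

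**Figure D2:**
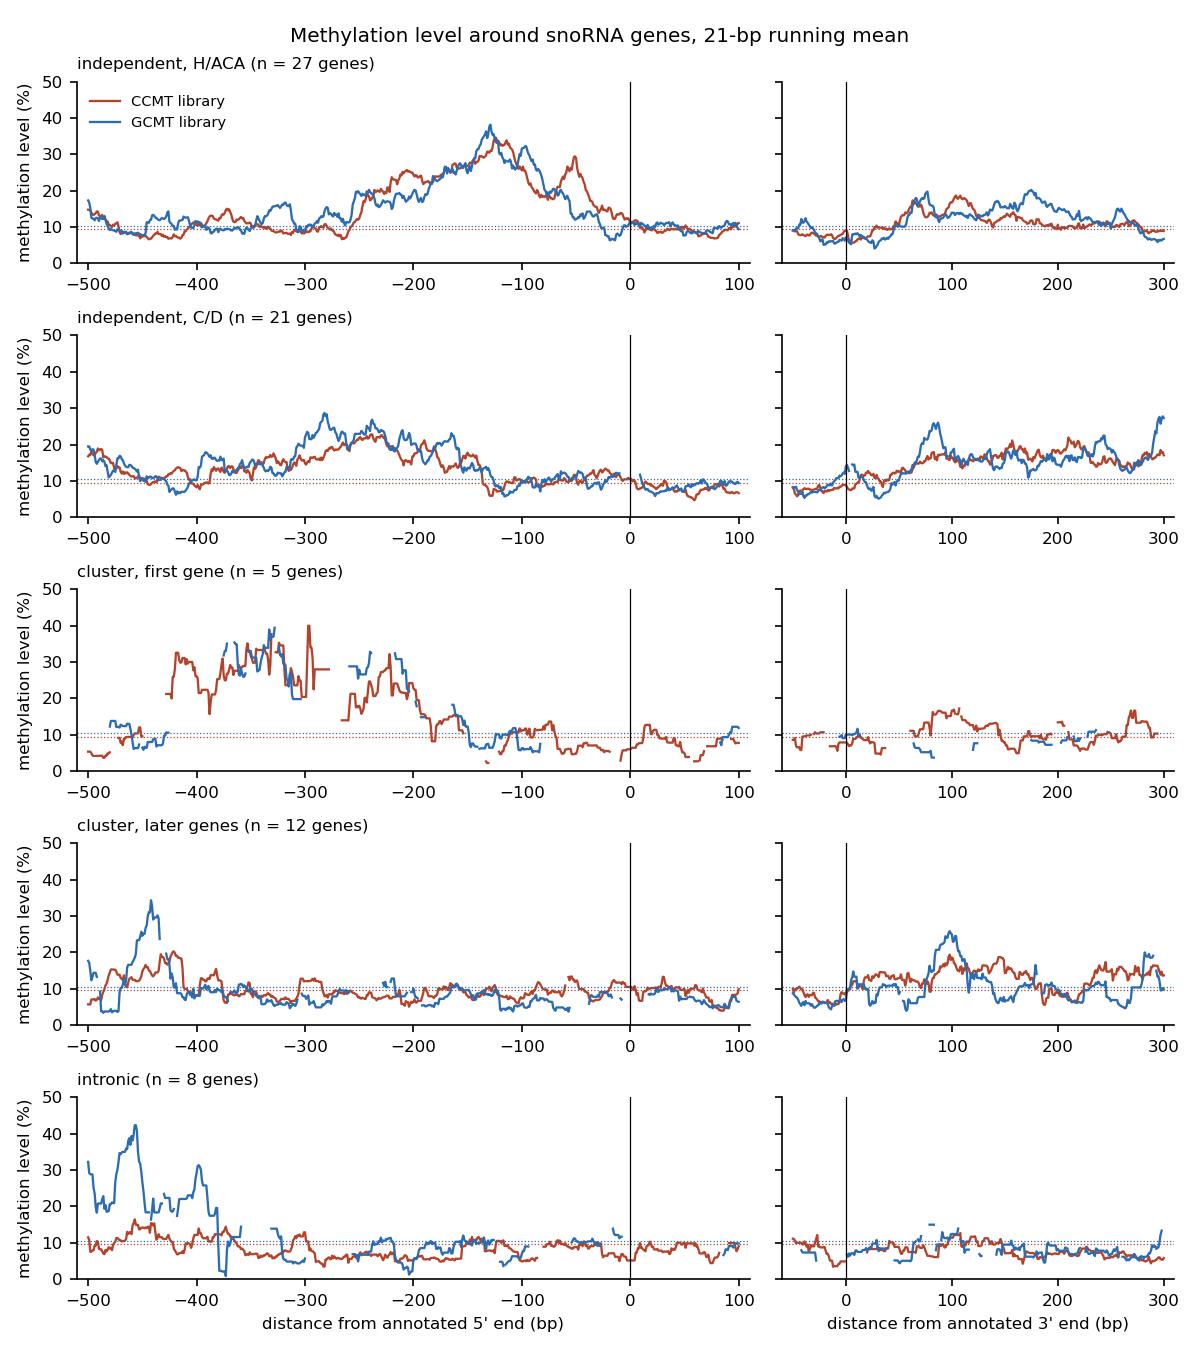
Methylation level (%), pooled over genes and smoothed over 21 bp, against distance (bp) from the annotated 5′ end (left) and 3′ end (right) for 5 groups of snoRNA genes, with CCMT in red, GCMT in blue, and the nuclear levels dotted. Positions with fewer than 100 reads are left blank; the H/ACA genes peak near −125 bp, the C/D genes and the first genes of clusters farther upstream, and later cluster genes and intronic genes stay near the nuclear level over the nearest 350 bp.

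The same was seen gene by gene. The level from 150 bp upstream to the 5′ end was higher than that over the 150 bp before it in 18 of 24 independent H/ACA genes with CCMT and in 17 of 23 with GCMT, where both parts had at least 3 listed cytosines. It was so in 4 of 21 independent C/D genes with CCMT and 5 of 21 with GCMT. Among protein-coding genes the share was 45.5% with CCMT and 46.0% with GCMT, and over all snoRNA genes it was 36 of 71 and 29 of 67, so the groups lay on either side of the background. These 2 windows and the split by box class were chosen after the profiles had been seen, and the counts describe the profiles rather than test them. SNR34, an H/ACA gene, had 30.5% near the 5′ end and 9.52% farther upstream with CCMT, and 52.1% and 10.9% with GCMT. The H/ACA genes of the opposite order in both libraries were SNR43, SNR46, SNR81, SNR83 and SNR85. SNR85, for example, had 13.7% near the 5′ end and 33.6% farther upstream with CCMT, and 4.69% and 37.3% with GCMT. The C/D genes that were higher near the 5′ end in both libraries were SNR13 and SNR45. SNR13 had 23.7% near the 5′ end and 18.2% farther upstream with CCMT, and 22.3% and 10.5% with GCMT. SNR13, SNR43, SNR46, SNR81, SNR83 and SNR85 were named after their values had been seen.

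**Figure D3:**
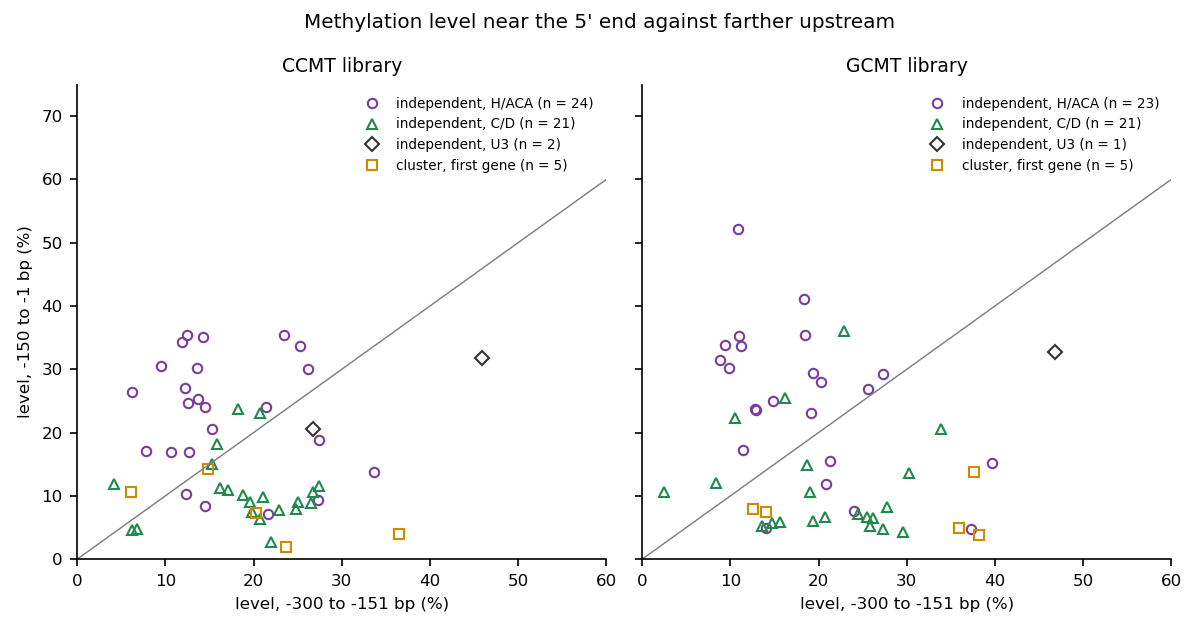
Methylation level (%) from 150 bp upstream to the 5′ end against that over the 150 bp before it, 1 point per gene, in the CCMT library (left) and the GCMT library (right), with the line of equal levels. H/ACA genes (circles) lie mostly above the line and C/D genes (triangles) mostly below it in both libraries.

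The first genes of the 5 clusters, all box C/D, also had their accessible stretch far from the 5′ end. Their highest 50-bp bin began at a median of −350 bp with CCMT and −300 bp with GCMT. For independent C/D genes it began at −250 and −300 bp, so the distance was greater with CCMT only. Their pooled maximum was at −297 bp with CCMT (40.0%) and −328 bp with GCMT (39.4%). Their median level was 26.2% with CCMT and 24.2% with GCMT from 500 to 251 bp upstream, and 13.4% and 17.9% in the upstream region next to the gene. SNR190, SNR67, SNR57 and SNR78 were all higher in the farther region in both libraries. With CCMT they ranged from 26.0% to 30.2% there and from 7.30% to 15.3% in the nearer region. With GCMT the farther region ranged from 15.7% to 26.1% and the nearer region reached at most 19.7%. SNR41 was the exception and the only cluster gene called, with 20.8% (17.1% to 24.9%) with CCMT and 21.9% (16.1% to 28.7%) with GCMT in the nearer region, and 6.88% and 15.5% farther upstream.

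The 12 later genes of clusters showed no accessible stretch of their own. Upstream of them the median was 9.33% in the CCMT library and 6.74% in the GCMT library, and the maxima were 14.8% and 11.9%. The longest cluster, of 7 genes on chromosome XIII, illustrates this. SNR78, the first gene, had 13.4% upstream with CCMT and 19.7% with GCMT. SNR77, SNR76, SNR75, SNR74, SNR73 and SNR72 follow it in that order. Their CCMT levels upstream were 10.4%, 6.44%, 7.08%, 4.14%, 10.1% and 9.36%, and their GCMT levels 5.22%, 7.10%, 4.31%, 3.89%, 4.88% and 11.9%. Because the genes are close, these upstream regions hold the preceding gene or the spacer after it. The far upstream region of SNR70, the gene after SNR41, had 24.1% with CCMT and 26.6% with GCMT, and it covers DNA before that cluster.

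**Figure D4:**
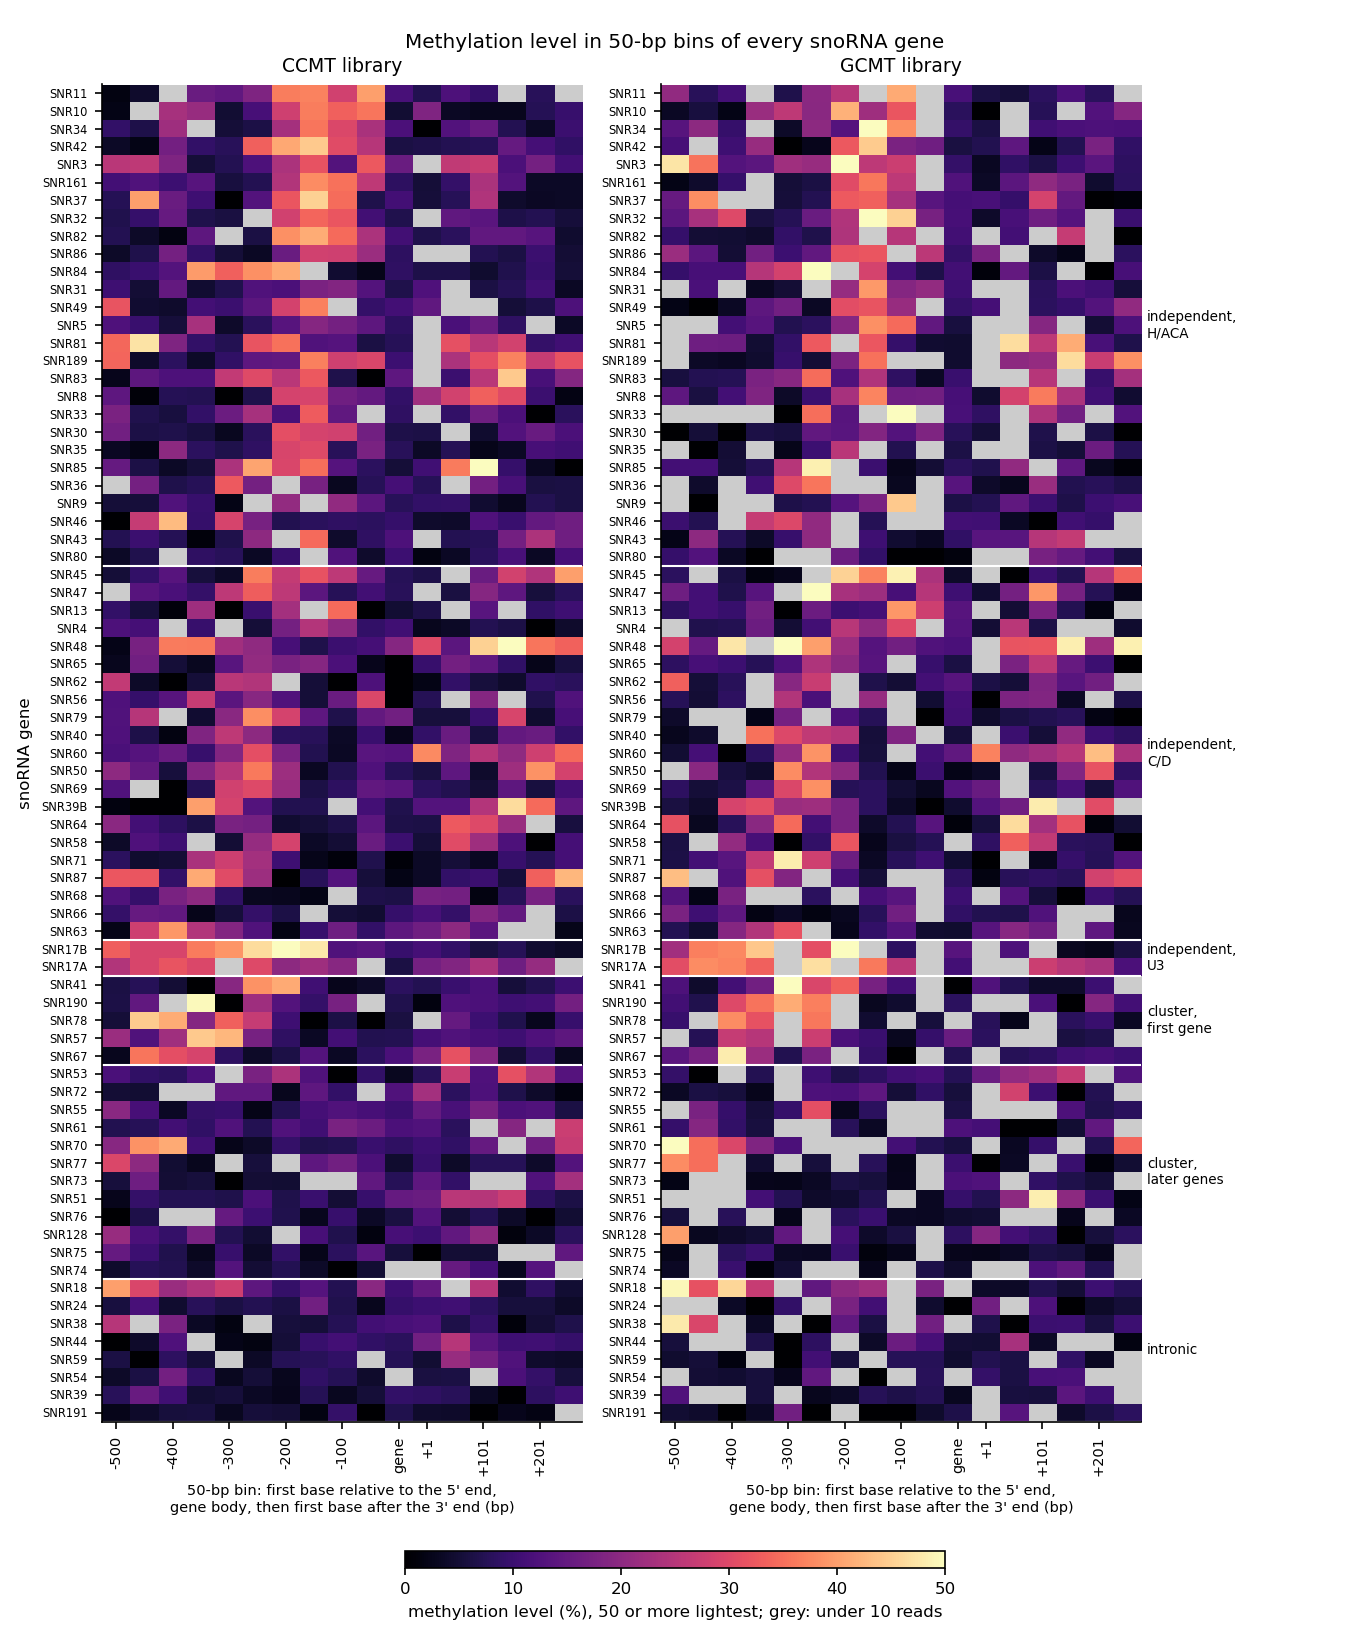
Methylation level (colour, %) in 50-bp bins for each of the 75 snoRNA genes (rows, by group and falling upstream level) in the CCMT library (left) and the GCMT library (right), from 500 bp upstream, over the gene body, to 300 bp downstream. Bright bins stand mostly between 250 and 50 bp upstream in H/ACA genes and farther to the left in C/D genes and first cluster genes, and the column of gene bodies is mostly dark; grey bins have fewer than 10 reads.

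The intronic genes had no accessible upstream region in either library. SNR191, an H/ACA gene in NOG2, had 5.30% (3.63% to 7.44%) with CCMT and 1.19% (0.03% to 6.46%, 84 reads) with GCMT. SNR39 in RPL7A, SNR54 in IMD4, SNR59 in RPL7B, SNR24 in ASC1, SNR38 in TEF4 and SNR44 in RPS22B lay between 4.74% and 7.93% with CCMT and between 5.18% and 10.5% with GCMT. SNR18 in EFB1, which encodes a translation elongation factor, was the highest, with 12.9% (10.1% to 16.3%) and 18.3% (13.4% to 24.2%). The first coding base of the host lay within 500 bp of the snoRNA for SNR18, SNR38 and SNR44, at 193, 294 and 268 bp upstream. In the far upstream region SNR18 had 29.0% with CCMT and 38.2% with GCMT, SNR38 10.96% and 38.9%, and SNR44 8.52% and 4.86%. For SNR38 that region also covers DNA with low levels just before the host and at its start. In its 50 bp farthest upstream, before the host, SNR38 had 25.1% with CCMT and 48.0% with GCMT. The far upstream region was thus high in both libraries for SNR18. For SNR38 it was high with GCMT, but with CCMT only those 50 bp are given as high. They are its highest upstream bin in each library. The level was lower next to both snoRNAs.

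The bodies of the snoRNA genes were not accessible. Their median level was 8.59% with CCMT, over 66 genes with at least 3 listed cytosines, and 8.63% with GCMT, over 62 genes, against 7.87% and 7.69% for protein-coding genes. A single body was called with CCMT, against 1.84% of protein-coding bodies, and none with GCMT, against 1.99%. The called body was that of SNR48, a guide for the large ribosomal RNA, with 19.3% over 4 cytosines with CCMT, while its GCMT value rests on 2 cytosines. Nuclear tRNA genes, another class of short RNA genes, had median body levels of 22.7% with CCMT over 273 genes and 33.8% with GCMT over 261. Whether the cytosines of tRNA genes lay in unique sequence was not checked. The upstream region was higher than the body in 49 of 66 snoRNA genes with CCMT and in 49 of 62 with GCMT, against 89.2% and 89.3% of protein-coding genes. Independent H/ACA genes had the order of protein-coding genes, in 25 of 27 with CCMT and 26 of 27 with GCMT. Fewer did so among independent C/D genes, 12 of 17 and 11 of 16, among cluster genes, 8 of 13 and 8 of 14, and among intronic genes, 2 of 7 and 2 of 3.

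Downstream of the genes the medians were somewhat above those of the body. From 1 to 150 bp after the 3′ end the median was 11.6% with CCMT and 9.89% with GCMT. In this region 13 of 73 snoRNA genes were called with CCMT and 10 of 68 with GCMT, which is near the 15.6% and 15.4% of protein-coding genes. For independent genes the level differed with the orientation of the next gene. Where that gene followed within 500 bp on the same strand, so that its 5′ end faced the snoRNA gene, the median was 17.2% with CCMT over 19 genes and 18.7% with GCMT over 18. Where it stood on the opposite strand, with its 3′ end facing, the medians were 10.2% over 25 genes and 9.81% over 24. The ranges overlapped, from 6.67% to 29.7% and from 4.08% to 26.7% with CCMT. In this region the split was seen for H/ACA genes, with 20.5% and 18.7% on the same strand against 10.2% and 9.37% on the opposite strand. Within these 150 bp it was not seen for C/D genes, with 10.8% and 13.8% on the same strand against 11.6% and 14.7%. Over the next 150 bp the C/D genes did differ, with medians of 13.3% with CCMT and 12.1% with GCMT on the same strand against 7.92% and 7.34% on the opposite strand, and the H/ACA genes differed less, with 8.92% and 12.9% against 7.77% and 10.2%. In the first 150 bp the highest level with CCMT stood after SNR48, with 31.5% and with 31.9% in the GCMT library. The highest with GCMT there stood after SNR81, with 40.4% and with 27.9% in the CCMT library. Over the next 150 bp SNR48 was highest in both libraries, with 36.1% with CCMT and 35.6% with GCMT. No gene followed SNR48 within 500 bp, so it was in neither orientation group. The 5 independent genes of this kind had medians of 9.43% with CCMT and, over 4 genes, 9.16% with GCMT in the first 150 bp. SNR81 and SNR48 are named here because of these values.

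The letters AACCCTAA and AGCCCTAA, given for Tbf1, were searched on both strands of the upstream region, and occurred in 9 of 75 snoRNA genes against 0.95% of protein-coding genes. When the window was widened to 500 bp, after the profiles had been seen, matches occurred in 23 of 75 snoRNA genes against 2.18% of protein-coding genes. Of the independent C/D genes 11 of 21 had a match within 500 bp, of the first cluster genes 3 of 5, and of the independent H/ACA genes 6 of 27. The letters TTACCCG, given for Reb1, occurred within 250 bp of 8 of 75 snoRNA genes against 7.03% of protein-coding genes. Of these 8, 7 were independent H/ACA genes and the other was SNR45. Within 500 bp they occurred in 12 of 75 against 10.1%. The letters ACCCANNCA, given for Rap1, occurred within 250 bp of SNR17A and SNR24 only, or 2 of 75, against 2.55%, and within 500 bp of 6 of 75 against 6.0%. The 3 motifs share the letters CCC, overlaps between their matches were not scored, and a match is a stretch of letters and not a measured binding site.

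The 8 distinct Tbf1 matches within 250 bp are shown with 15 bases on either side, because the levels around them are described next. The match is in capitals, the strand is that of the gene named, and the match near SNR31 also lies upstream of the divergent gene SNR5.
SNR17B, chrXVI:281657-281694: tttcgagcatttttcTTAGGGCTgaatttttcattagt
SNR45, chrXVI:821547-821584: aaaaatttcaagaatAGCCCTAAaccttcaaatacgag
SNR30, chrXII:198578-198615: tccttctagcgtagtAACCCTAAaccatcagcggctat
SNR49, chrXIV:715931-715968: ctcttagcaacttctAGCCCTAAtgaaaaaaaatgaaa
SNR31, chrXV:842262-842299: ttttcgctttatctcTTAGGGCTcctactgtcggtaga
SNR13, chrIV:1402744-1402781: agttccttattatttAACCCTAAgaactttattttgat
SNR65, chrIII:176924-176961: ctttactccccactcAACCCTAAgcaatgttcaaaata
SNR46, chrVII:545320-545357: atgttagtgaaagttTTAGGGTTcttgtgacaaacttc

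Pooled over these matches, the level was above the nuclear level. The match next to SNR46 was an exception, with 5.0% inside it, 7.41% at 5 to 50 bp and 8.89% at 51 to 150 bp in the CCMT library, and 8.11% at 5 to 50 bp in the GCMT library. Every match holds CC, whereas only AGCCCTAA holds GC, so the GCMT values inside rest on fewer matches. Over the 8 matches the level inside the match was 25.5% (21.2% to 30.2%, 16 cytosines) with CCMT and 42.0% (33.7% to 50.7%, 8 cytosines) with GCMT. It was 21.2% and 25.2% at 5 to 50 bp from the match and 14.9% in both libraries at 51 to 150 bp. Over the 22 matches within 500 bp the level inside was 25.4% with CCMT and 37.6% with GCMT. With CCMT the level inside was below that at 5 to 50 bp in 11 of these 22 matches, so no dip at the match was seen. Matches upstream of protein-coding genes were above the nuclear level too. Inside 103 matches within 500 bp the level was 20.4% with CCMT, below that of the snoRNA matches, and 35.9% with GCMT. At 5 to 50 bp it was 22.7% and 24.3%. At 51 to 150 bp it was 18.0% and 19.9%, above the 14.3% and 16.7% of the 22 snoRNA matches. Over all 502 matches elsewhere in the nuclear genome the levels inside were 11.3% and 16.0%.

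The snoRNA matches differed from those at protein-coding genes in how the level fell off on either side. Read in the direction of the letters searched, the level at 51 to 150 bp before the 22 matches was 8.85% (7.95% to 9.81%) with CCMT and 10.2% (8.97% to 11.6%) with GCMT. At the same distance after the matches it was 20.8% (19.4% to 22.3%) and 24.9% (22.9% to 27.0%). The level after the match was the higher in 21 of 22 matches with CCMT and in 20 of 21 with GCMT, against 43.9% and 50.5% of matches at protein-coding genes. Pooled over the 103 protein-coding matches, the levels were 18.5% before and 17.5% after the match with CCMT, and 20.01% and 19.8% with GCMT. At snoRNA genes 18 of the 22 matches ran in the direction of transcription, and 49 of the 103 did at protein-coding genes. All 18 snoRNA matches in that direction were higher after the match with CCMT, as were all 17 with a value with GCMT. Of the 4 matches in the other direction, 3 were higher after the match in each library. At protein-coding genes the level after the match was the higher in 19 of 46 matches in the direction of transcription with CCMT and in 22 of 48 with GCMT. The sides were compared after the profile around the matches had been seen. Whether Tbf1 was bound at any of these matches was not measured.

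**Figure D5:**
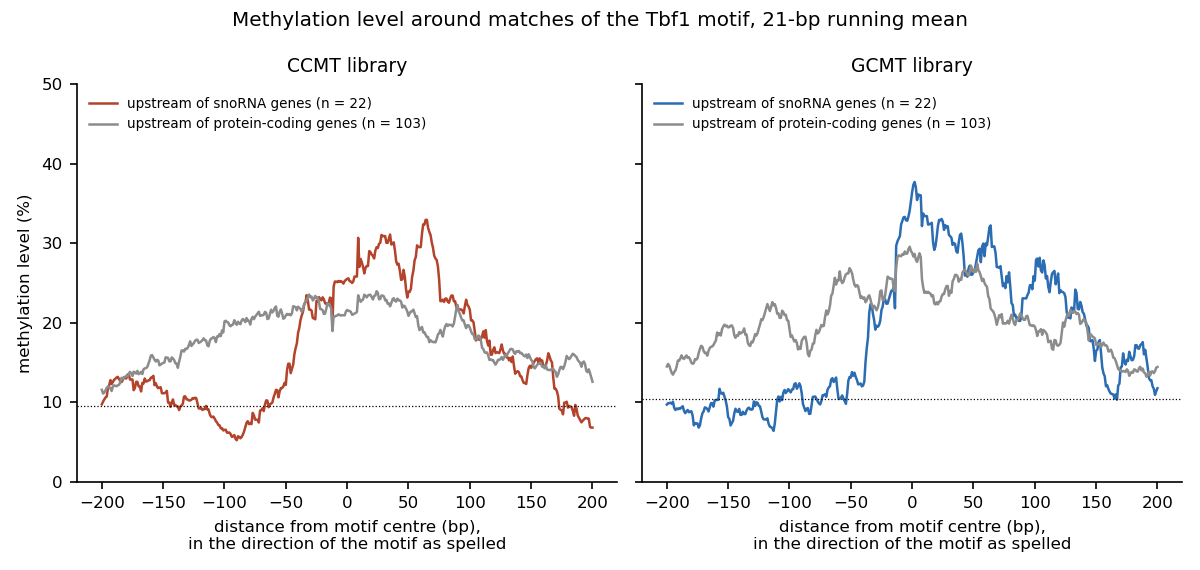
Methylation level (%), smoothed over 21 bp, against distance (bp) from the centre of Tbf1 motif matches within 500 bp upstream of snoRNA genes (colour, 22 matches) and of protein-coding genes (grey, 103 matches), in the CCMT library (left) and the GCMT library (right), read in the direction of the letters searched; the dotted line is the nuclear level. Around snoRNA matches the level is near the nuclear level more than 50 bp before the match and stays high for about 100 bp after it, whereas the grey curve is nearly even on both sides.

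The upstream level was also compared between genes with and without a Tbf1 match within 500 bp. Independent C/D genes had medians of 13.9% with CCMT and 13.5% with GCMT for the 11 genes with a match, against 12.4% and 9.26% for the 10 without. Independent H/ACA genes had 15.1% and 19.96% for the 6 genes with a match, against 25.7% and 21.7% for the 21 without. Of the 21 C/D genes only 3 had a match within 250 bp. From 500 to 251 bp upstream, the C/D medians with a match were 14.1% with CCMT and 15.04% with GCMT, against 14.4% and 13.2% without. The H/ACA medians there were 8.21% and 7.77% with a match, against 9.28% and 11.7% without. In both regions the ranges of the groups with and without a match overlapped in both classes and both libraries.

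Other genes of the pathway were read over the same 250 bp before their start codon, from a list of 27 genes for snoRNP proteins, factors of assembly, processing and termination, and TBF1. Of these, 10 were called with CCMT, 11 with GCMT and 8 with both, against 30.6%, 31.5% and 18.4% of all protein-coding genes. The medians of the list were 17.4% and 19.3%, against 15.6% and 16.7% for all protein-coding genes. CBF5, for the pseudouridine synthase, had 26.2% with CCMT and 35.7% with GCMT, and NOP56, for a core C/D protein, 26.2% and 23.2%. NOP1, for the methyltransferase, had 9.02% and 19.8%, below the threshold in both libraries. TBF1 itself had 23.8% and 30.4%. None of NRD1, NAB3 and SEN1, whose products terminate snoRNA transcription, was called, although NAB3 came close with CCMT at 19.03%, and SEN1 was lowest of the list in both libraries, with 5.80% and 3.56%.

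The CCMT and GCMT libraries, which read different cytosines of the same DNA, gave more similar orders of the snoRNA genes upstream than within the body. Across the 75 genes the upstream levels of the libraries had a Pearson correlation of 0.73 and a Spearman correlation of 0.76, and CCMT was the higher in 36 genes. Across the 55 genes with a body level in both, the correlations were 0.21 and 0.25. These are correlations across genes, which are not independent replicates, and the points share the base composition and the position of each gene. In the body the levels covered a narrow range, and the GCMT library had fewer reads.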

How the data were processed

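The authors mapped bisulfite reads of tPBAT libraries to sacCer3 with BMap and in-house pipelines, whose versions and read filters are not given in the sources used here. Per cytosine they deposited the coverage, a read count without normalization, and the methylation level, a fraction from 0 to 1, for cytosines with at least 5 reads. The product of the deposited count and fraction was whole to within 0.0024, which gave the methylated reads. Molecular identifiers are not mentioned, so reads can include copies of 1 molecule. The paper's methods give amounts of formaldehyde and detergent that differ from those of the labels, and a supplementary table lists the CCMT library under another sample than the one used here.

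Reads were pooled over regions with at least 3 listed cytosines, from the RefSeq R64 annotation. Box classes came from a list and matched the annotation's notes. The genes named were all intronic genes, the first gene of each cluster, SNR17A, SNR17B, SNR128, SNR190, SNR30 and SNR10, and, of independent genes with at least 5 upstream cytosines in each library, the 8 highest by the smaller and the 4 lowest by the larger of their percentile ranks. Members and lists were chosen with earlier results of these data known. Calls used 2 times the nuclear level. The 500 bp motif window, the near and far windows, the split by box class and the 2 sides of a match were chosen after seeing the data. The nuclear depth was 28485123 reads for CCMT and 10967078 for GCMT. No p-values were computed, since neither enzyme has a replicate. The scripts were tested on simulated data; matplotlib 3.10.9, scipy 1.17.1, pandas 2.3.3 and numpy 2.4.6 ran under Python 3.11.15. SNR52, which has a promoter for RNA polymerase III, and data of other organisms and assays were not analysed here.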

Additional observations from a re-analysis of the deposited data

Results flagged for a closer look

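Of 55 snoRNA genes with a body level in both libraries, 15 (27.3%) had an upstream region above the body in 1 library and below it in the other, against 12.1% of protein-coding genes. The difference between the libraries was not tested for any of them, and none of the 15 had an upstream region called in either library. The bodies of snoRNA genes held far fewer cytosines, with CCMT 962 over 75 genes against 701332 over 6002 protein-coding genes. The body of SNR57, for example, rests on 3 cytosines and 41 reads with CCMT. How far these lower counts raise the share was not tested. Values are the upstream level minus the body level, in percentage points.

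The upstream region was lower than the body with CCMT and higher with GCMT in 8 genes. The widest gaps were those of SNR63, with -6.95 points with CCMT (7.19% upstream and 14.1% in the body) and 0.904 with GCMT (5.38% and 4.48%), and of SNR80, with -3.72 points with CCMT and 5.48 with GCMT. SNR67, the first gene of a cluster, had -4.54 points with CCMT and 2.73 with GCMT. The later cluster genes SNR55 and SNR70 had -0.688 and -0.952 points with CCMT and 5.30 and 3.73 with GCMT. Intronic SNR44 had -1.56 points with CCMT and 4.07 with GCMT. The independent genes SNR68 and SNR46 had -2.67 and -0.838 points with CCMT and 0.779 and 1.58 with GCMT.

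The order was the other way in 7 genes. The later cluster genes SNR77, SNR73 and SNR61 had 5.97, 2.49 and 0.233 points with CCMT and -4.78, -7.12 and -5.74 with GCMT. SNR57, the first gene of a cluster, had 1.63 points with CCMT and -4.59 with GCMT. The independent genes SNR87, SNR60 and SNR43 had 7.06, 0.656 and 1.05 points with CCMT and -0.0111, -3.35 and -1.45 with GCMT.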

How the results depend on the processing

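Of 163 values recomputed under alternatives, 150 stayed within the counting error of the median gene or region, moved by less than 1.5 times for counts, or by at most 10 bp for positions. A minimum of 10 reads per cytosine, leaving out GCC cytosines, means of single levels, unique sequence only, an upstream region from -200 to -50 bp, leaving out cytosines inside other genes and a wider limit for clusters moved none of the values they were run for beyond these limits. The limits are wide for some levels. For cluster bodies with GCMT the limit was 7.92 points on a level of 7.41%, so no fall could pass it. Unique sequence only and the wider limit for clusters returned the same values. With CCMT thinned to the coverage of GCMT, the upstream median of independent genes was 16.8% against 19.3%, within its limit. With a call at 3 times the nuclear level, the upstream region of 7 genes was called with CCMT, against 4.48% of protein-coding genes, and of 4 with GCMT, against 6.08%, and no body with CCMT (0). The number of bodies called with CCMT was 0 with thinned CCMT reads, 0 with at least 5 cytosines per region and 4 of 66 at 1.5 times, against 3.18% of protein-coding bodies, and with GCMT 1 of 62 at 1.5 times, against 3.34%. The level inside Tbf1 matches with CCMT was 30.1% with thinned reads, and that at 5 to 50 bp was 23.5% for matches within 500 bp, an alternative chosen after seeing the data. With a 51-bp running mean, the upstream maximum lay at -111 bp for H/ACA and -258 bp for C/D genes with GCMT, and for first cluster genes at -338 bp with CCMT and -284 bp with GCMT; the cause was not tested. Leaving out the cytosines inside other genes gives no value for intronic genes. No paired analysis was possible because each enzyme had 1 library, and for the same reason no replicate could be left out. The median width of an upstream interval was 7.35 percentage points with CCMT and 9.62 with GCMT, and with CCMT thinned to the coverage of GCMT 26 upstream regions were called, against 27.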
